A study of Mus musculus with 15 samples.

Results

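The genes of blood coagulation and fibrinolysis were followed in the maternal mouse liver through pregnancy, with the question of which single factors changed. The members are the rows of the count table named for 34 genes listed by their known place in the cascade, of 21702 genes in all. Of the 34 members, 30 passed the filter on low counts and are among the 12172 genes tested. All mice were wild-type females, C57BL/6 in the labels and C57BL/6N in the study's methods, that received an AAV8 vector through the tail vein before mating. AAV8-null carries no transgene, whereas AAV8-p21 carries the mouse p21 cDNA (gene Cdkn1a, a cyclin-dependent kinase inhibitor) behind the TBG promoter, which directs expression to hepatocytes. The 5 groups, with 3 livers each, were non-pregnant (NP) AAV8-null mice, AAV8-null mice at 8 and at 16 days post-coitum (dpc), and AAV8-p21 mice at 8 and at 16 dpc. There was no NP group with AAV8-p21. Each library is bulk RNA of a liver, so every group, NP included, carries a vector, and fewer cells of a type cannot be told apart from less RNA per cell.

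Most coagulation factors are made by hepatocytes and secreted into plasma as inactive zymogens. Tissue factor starts the cascade with factor VII, factors X and V then form the complex that turns prothrombin into thrombin, and thrombin cuts fibrinogen to fibrin, which factor XIII cross-links. Antithrombin, the protein C system and tissue factor pathway inhibitor hold the cascade back, and plasmin dissolves the clot. Pregnancy in mammals is known for a rise of several plasma factors, fibrinogen among them.

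Libraries held between 12280709 and 17615185 counts. The 8 hepatocyte markers summed to between 79297 and 132091 CPM (edgeR's depth-normalised count, with TMM factors) in the NP and 8 dpc libraries and to between 280823 and 445847 CPM at 16 dpc, most of it Alb, and the 6 placental and decidual markers had 1 count in 1 library and otherwise none. Cdkn1a stood between 3.29 and 127 CPM in the 9 AAV8-null libraries and between 347 and 1664 CPM in the 6 AAV8-p21 libraries. The albumin gene Alb took between 7.90% and 12.9% of the counts in NP and 8 dpc libraries and between 20.5% and 27.8% at 16 dpc, and TMM factors ran from 1.10 to 1.25 in the former and from 0.682 to 0.839 in the latter. One AAV8-null library of 8 dpc, replicate 2, had 869 CPM of the acute-phase gene Saa1, against at most 42.1 CPM in the other 14.

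Fibrinogen, whose 3 chain genes rose together, and F7, the zymogen gene with the largest rise at 16 dpc, carry much of the result, so the 250 bases upstream of their annotated starts are shown (RefSeq, GRCm38.p6). Fga, at chr3:83025903-83026152 on the plus strand, Fgg, at chr3:83007474-83007723 on the plus strand, and Fgb, at chr3:83049864-83050113 on the minus strand, lie in a single cluster. GENCODE M21 starts Fga earlier than RefSeq, at 83026076, so the end of the Fga window lies within the gene by that annotation. F7 lies at chr8:13025784-13026033 on the plus strand. Capitals mark matches, on either strand, to GTTAAT (the core of a site for the hepatocyte factor HNF1), CTGGGAA (the type II response element of interleukin-6) and CAAAGNNCA (the core of a site for HNF4).
Fga: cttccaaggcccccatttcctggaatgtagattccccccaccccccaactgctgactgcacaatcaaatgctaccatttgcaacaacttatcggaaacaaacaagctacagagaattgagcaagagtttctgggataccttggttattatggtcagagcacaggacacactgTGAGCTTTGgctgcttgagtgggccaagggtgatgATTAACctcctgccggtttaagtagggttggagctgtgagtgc
Fgb: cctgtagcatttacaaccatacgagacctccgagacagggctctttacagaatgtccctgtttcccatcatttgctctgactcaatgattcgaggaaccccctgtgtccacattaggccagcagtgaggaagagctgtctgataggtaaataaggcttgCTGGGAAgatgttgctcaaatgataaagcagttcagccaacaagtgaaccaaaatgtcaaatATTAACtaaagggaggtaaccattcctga
Fgg: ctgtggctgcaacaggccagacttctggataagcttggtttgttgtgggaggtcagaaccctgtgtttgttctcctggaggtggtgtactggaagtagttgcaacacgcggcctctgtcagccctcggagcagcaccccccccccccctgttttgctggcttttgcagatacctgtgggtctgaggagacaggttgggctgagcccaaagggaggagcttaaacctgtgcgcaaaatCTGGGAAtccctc
F7: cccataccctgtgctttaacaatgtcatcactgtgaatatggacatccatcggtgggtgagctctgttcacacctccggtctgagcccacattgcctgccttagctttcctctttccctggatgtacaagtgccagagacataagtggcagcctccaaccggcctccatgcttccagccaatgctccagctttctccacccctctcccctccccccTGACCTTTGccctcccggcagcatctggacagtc

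Of the 34 members, 25 had a promoter in the table, and Vwf was not among them. GTTAAT was found in 4 of these 25 genes, which were Fga, Fgb, F13b and Proz, and in 6.43% of all 32851 windows of this length. CTGGGAA was found in 4, which were Fgb, Fgg, F9 and Tfpi, against 9.1% of all windows. CAAAGNNCA was found in 4, which were Fga, F7, F9 and Kng2, against 5.49%. In Fgb the CTGGGAA stood 91 to 85 bases before the start and the GTTAAT 29 to 24 bases before it. The members were counted by gene and the background by window, so their shares are in unlike units. None of the 3 motifs overlapped another in the windows printed, and a match describes letters, not binding.

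At 16 dpc, 14 members were higher than in NP livers with AAV8-null and none was lower (edgeR quasi-likelihood test, adjusted p under 0.05 over all genes tested). DESeq2 on all libraries called 18, the same 14 with Serpina10, Serpinc1, Kng2 and Hrg, against 5.45% of all genes called higher by DESeq2. The edgeR calls are 14 of the 30 tested, while 6.52% of all genes tested were called, 3.71% as higher. The log2 fold change was positive in 25 of the 30, against 47.5% of all genes, and its median was 0.73 over the 30 and -0.03 over all genes. An unadjusted p under 0.05 was reached by 22 of the 30, against 21.2% of all genes. By role, the 14 held all 3 fibrinogen chains and the 4 zymogens F2, F7, F9 and F10, grouped here as vitamin K-dependent. Proc, for protein C, is also such a zymogen, but it was grouped apart and was not called. The 14 further held 3 of 5 genes of the contact and intrinsic pathway, 2 of 4 cofactors and initiators and 1 of 5 tested genes of fibrinolysis. Of the 4 genes of the protein C group only Proz was called, and of 4 tested protease inhibitors none. Among genes with a mean of 100 CPM or more, 9.9% were called higher. Of the 8 hepatocyte markers, Alb, Apoa1 and Asgr1 were called higher and Ttr lower, and their sum was 100116 to 113994 CPM in NP and 318027 to 445847 CPM at 16 dpc. The part of hepatocyte RNA in the members' rise was not tested. In 19 of the 30 the 3 libraries of 16 dpc all lay above the 3 of NP, against 12.1% of all genes, and the smallest two-sided p that an exact permutation test can give for such a gene is 0.1.

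The scale of the counts bears on these numbers. With plain total counts in place of TMM factors the median of all genes moved to -0.70 on the log2 scale. On total counts, 9 members were called higher and 5 lower, against 1.91% of all genes higher and 48.6% lower. The 9 were Vwf, F7, Fga, Fgg, Fgb, F2, F10, Kng1 and F11, all among the 14. The 5 lower were Plau (log2 fold change -2.18), F8 (-1.51), F13b (-0.78), Klkb1 (-0.53) and Proc (-0.52), and none of them was called with TMM. On this scale F9 (0.01), F12 (0.00), Plg (0.09), Proz (0.33) and F5 (0.39) were not called.

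**Figure D1:**
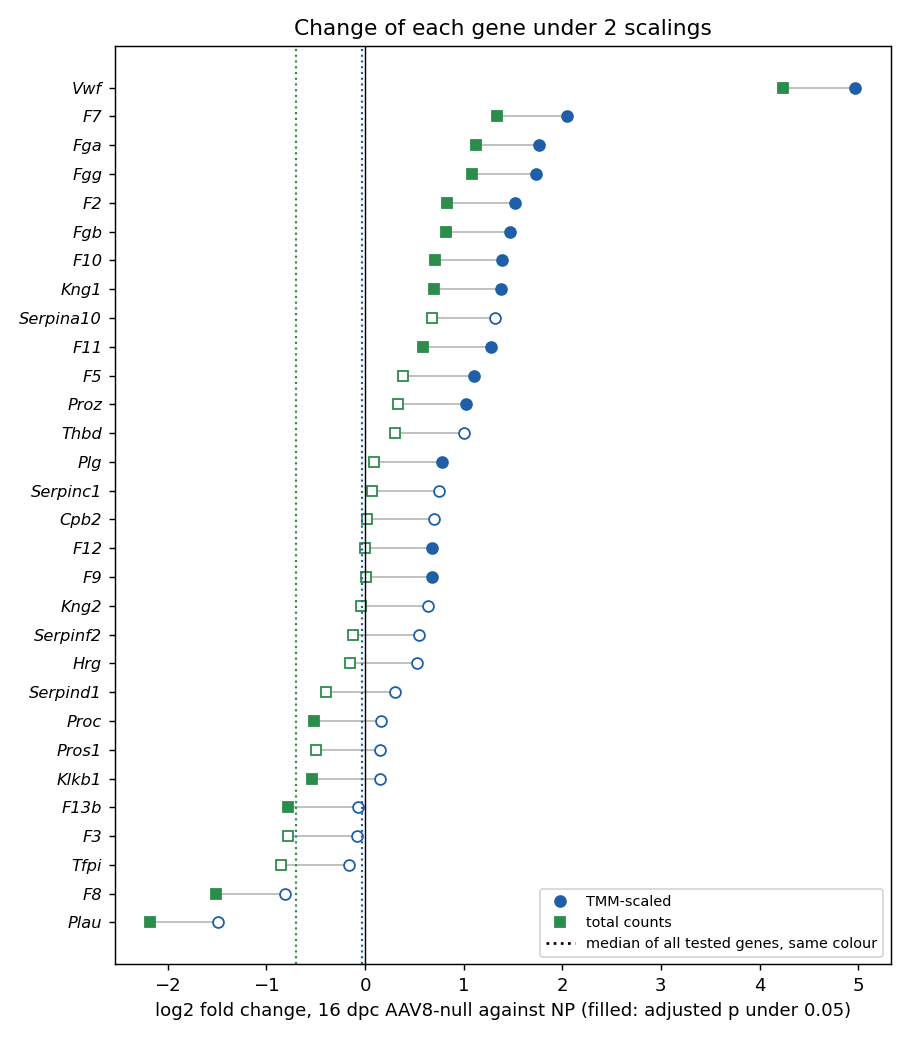
Log2 fold change of the 30 tested genes in 16 dpc AAV8-null livers against NP, with TMM scaling (circles) and with total counts (squares), filled where the adjusted p is under 0.05. Every gene shifts to the left by a like amount on total counts, and so does the median of all genes (dotted lines, -0.03 and -0.70), so that 9 of the 14 higher calls remain, the other 5 are not called, and 5 other genes are called lower.

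As a share of all counts, the 34 members took 2.46% ± 0.273 (SD, n = 3) in NP livers, 3.46% ± 0.776 at 8 dpc and 3.74% ± 0.677 at 16 dpc with AAV8-null. With AAV8-p21 the share was 3.20% ± 0.300 at 8 dpc and 3.47% ± 0.110 at 16 dpc. Within these shares, the fibrinogen chains alone took 0.949% ± 0.118 in NP, 1.74% ± 0.505 at 8 dpc and 1.90% ± 0.825 at 16 dpc with AAV8-null. With AAV8-p21 the chains took 1.48% ± 0.257 at 8 dpc and 1.35% ± 0.168 at 16 dpc.

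Leaving out 1 library moved the count of 14 by over 1.5 times for NP replicate 2 (7 members called) and NP replicate 3 (8 called). Without NP replicate 1, 14 were called, of which 11 were the same. The added calls were Serpina10 and Serpinc1, which were higher, and F8, which was lower (log2 fold change -1.23). The 7 genes called under each of the 18 alternatives run, leaving out any single library included, were Vwf, F7, F2, F11, Fga, Fgb and Fgg.

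Fibrinogen is a hexamer of α, β and γ chains, encoded by Fga, Fgb and Fgg. Fga gave 2971, 2300 and 2391 CPM in the NP libraries, 5015, 6418 and 3616 at 8 dpc and 5895, 7713 and 12399 at 16 dpc with AAV8-null. The NP libraries lay below all those of pregnant mice, and replicate 3 of 16 dpc stood far above the others. The log2 fold change of 16 dpc against NP was 1.76 ± 0.30 (SE, adjusted p = 0.00300). Fgg gave 2897, 2075 and 2077 CPM in NP, 4722, 5601 and 2769 at 8 dpc and 6102, 7042 and 10279 at 16 dpc, a log2 fold change of 1.73 ± 0.29 against NP (adjusted p = 0.00245). Fgb gave 3643, 2925 and 2865 CPM in NP, 5142, 6445 and 3482 at 8 dpc and 6339, 7943 and 11773 at 16 dpc, a log2 fold change of 1.47 ± 0.28 (adjusted p = 0.00680). For Fgb and Fgg, replicate 3 of 8 dpc fell within the NP range, and each 16 dpc library lay above each NP library.

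At 8 dpc the fibrinogen genes had an unadjusted p under 0.05, although none passed the adjustment. Against NP the log2 fold changes at 8 dpc were 0.97 ± 0.29 for Fga (adjusted p = 0.394), 0.89 ± 0.28 for Fgg (adjusted p = 0.409) and 0.68 ± 0.28 for Fgb (adjusted p = 0.614). The highest 8 dpc library for all 3 chains was replicate 2, the library with 869 CPM of Saa1, and its part in the difference was not tested. From 8 to 16 dpc the chains differed by 0.79 (Fga), 0.84 (Fgg) and 0.79 (Fgb), without passing the adjustment in edgeR, while DESeq2 on all libraries called Fgg (adjusted p = 0.0288) and Fgb (adjusted p = 0.0387).

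The ratio of 2 genes within a library does not depend on how the library is scaled. Per kilobase of annotated exon, the level of Fga was 1.03 ± 0.0306 (SD, n = 3) times that of Fgb in NP, with libraries between 0.995 and 1.06, and 1.27 ± 0.0408 times at 8 dpc and 1.25 ± 0.0795 times at 16 dpc with AAV8-null. The lowest ratio among the 12 libraries of pregnant mice was 1.11. The 3 NP libraries thus lay below all the others in the balance of Fga to Fgb. The ratio of Fgg to Fgb separated less, with 1.29 to 1.45 in NP, 1.45 to 1.67 at 8 dpc and 1.59 to 1.75 at 16 dpc with AAV8-null, and NP overlapped with AAV8-p21 at 16 dpc (1.37 to 1.54).

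**Figure D2:**
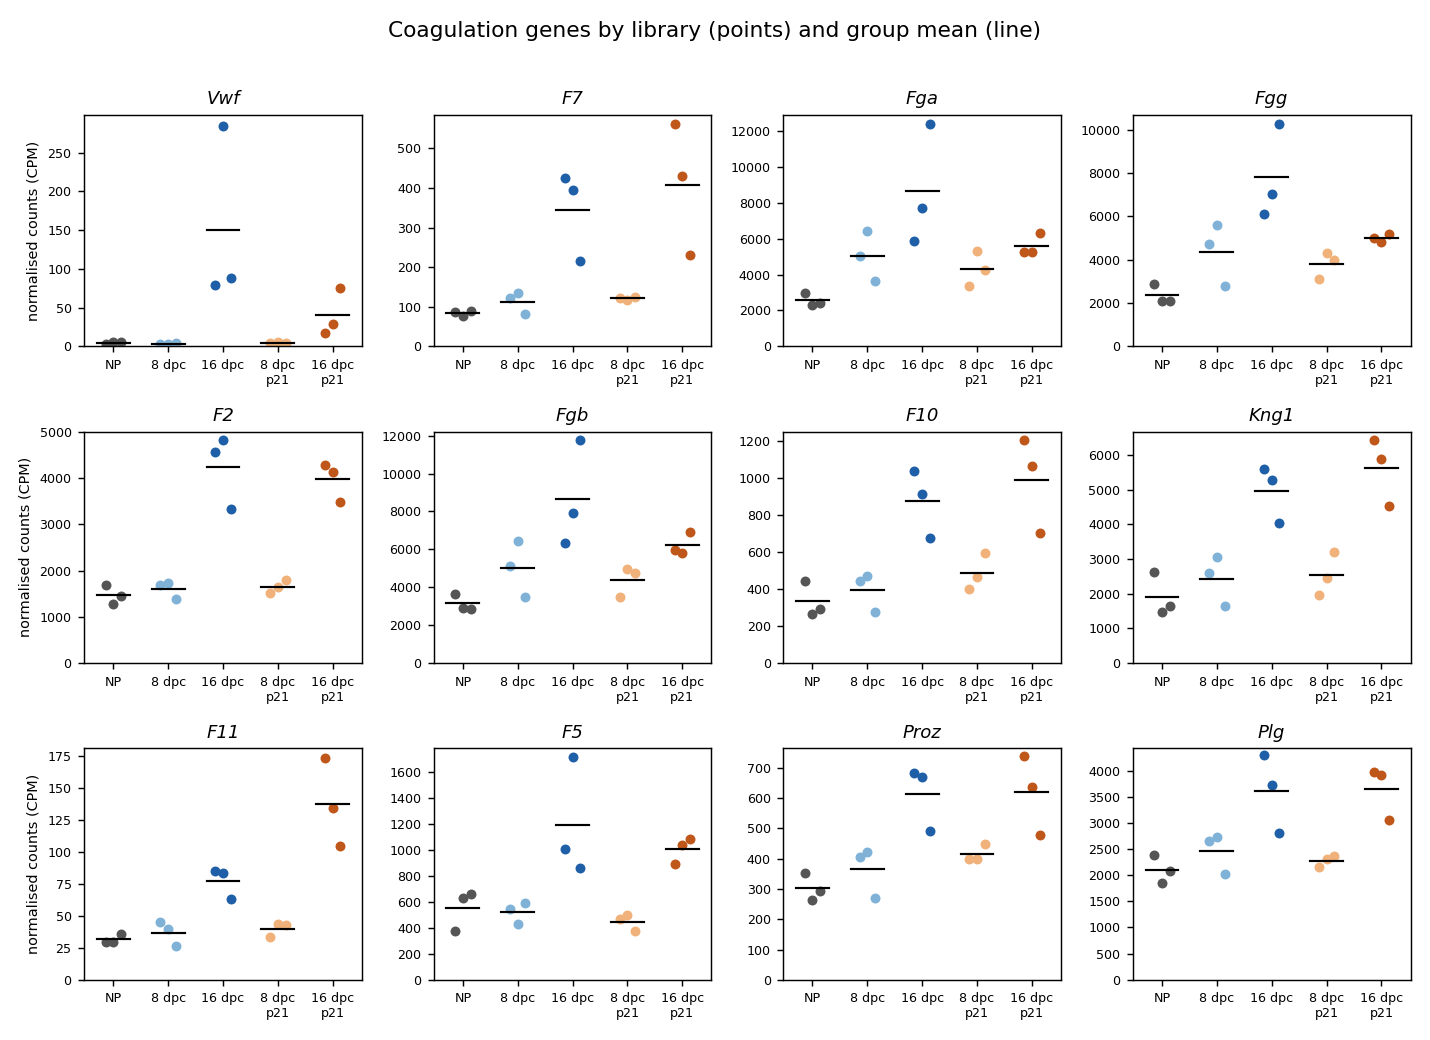
Depth-normalised counts (CPM, TMM factors) of the 12 genes with the largest called change at 16 dpc, by library (points) and group mean (line), each axis starting at 0. In every panel the 3 AAV8-null libraries of 16 dpc lie above the 3 NP libraries. At 8 dpc only Fga among these genes has all 3 AAV8-null libraries above NP.

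The vitamin K-dependent zymogens are proteases that need γ-carboxylation in the hepatocyte to bind membranes. Those grouped here are F2, F7, F9 and F10, while Proc is given with the protein C group. F2 encodes prothrombin. Its level was 1683, 1276 and 1458 CPM in NP, 1691, 1732 and 1384 at 8 dpc and 4555, 4829 and 3323 at 16 dpc with AAV8-null. Thus the 8 dpc libraries overlapped with NP, while all 16 dpc libraries stood well above, with a log2 fold change of 1.52 ± 0.21 against NP (adjusted p = 0.000646). F7 encodes factor VII, the partner of tissue factor. It rose from 85.3, 76.8 and 88.5 CPM in NP to 425, 395 and 215 CPM at 16 dpc, with 122, 134 and 80.8 at 8 dpc. Its log2 fold change of 2.05 ± 0.32 (adjusted p = 0.00149) was the largest of these 4 zymogens.

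F10 encodes factor X, which converts prothrombin. F10 gave 444, 263 and 294 CPM in NP, 444, 471 and 275 at 8 dpc and 1037, 913 and 678 at 16 dpc, a log2 fold change of 1.39 ± 0.29 (adjusted p = 0.0113). NP replicate 1 stood above the other NP libraries, and without NP replicate 2 or 3 the call was lost (adjusted p = 0.0606 and 0.0560). F9, on the X chromosome, encodes factor IX, the protease missing in haemophilia B. It rose by 0.68 ± 0.16 on the log2 scale (adjusted p = 0.0217), a call lost without NP replicate 1 or 2 or without replicate 1 or 3 of 16 dpc (adjusted p from 0.0533 to 0.111).

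The contact pathway starts clotting at charged surfaces, through factor XII, prekallikrein and kininogen, and runs to factor XI. F11 encodes factor XI. It gave 29.6, 29.6 and 36.2 CPM in NP, 45.0, 39.8 and 26.1 at 8 dpc and 84.8, 83.8 and 63.1 at 16 dpc, a log2 fold change of 1.28 ± 0.24 (adjusted p = 0.00542). F12, for factor XII, rose by 0.68 ± 0.16 (adjusted p = 0.0215), but not without NP replicate 2 or 3 or replicate 2 of 16 dpc (adjusted p from 0.0757 to 0.0923). Klkb1, the gene of prekallikrein and the neighbour of F11 on chromosome 8, was between 280 and 296 CPM in NP and between 285 and 375 CPM at 16 dpc (log2 fold change 0.15 ± 0.17, adjusted p = 0.671).

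Mice have 2 kininogen genes. Kng1 gave 2614, 1477 and 1631 CPM in NP, 2583, 3052 and 1634 at 8 dpc and 5595, 5290 and 4039 at 16 dpc, a log2 fold change of 1.38 ± 0.30 (adjusted p = 0.0132), lost without NP replicate 2 or 3 (adjusted p = 0.0688 and 0.0648). Kng2 was between 215 and 311 CPM in NP and between 358 and 428 CPM at 16 dpc (log2 fold change 0.63 ± 0.21, adjusted p = 0.0853). Per kilobase, Kng1 stood 6.10 ± 0.864 times above Kng2 in NP and 10.3 ± 0.780 times above it at 16 dpc (SD, n = 3), and the highest NP library, at 7.08, lay below the lowest of 16 dpc, at 9.48. The genes are close copies, and reads that map to both are not in the table, so their levels are uncertain.

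Factors V and VIII are cofactors that speed up the proteases, tissue factor is the initiator, and von Willebrand factor carries factor VIII and tethers platelets. F5 gave 379, 628 and 658 CPM in NP, 546, 432 and 593 at 8 dpc and 1004, 1714 and 857 at 16 dpc, a log2 fold change of 1.10 ± 0.28 (adjusted p = 0.0286). All 16 dpc libraries lay above those of NP and 8 dpc, but the call was lost without any 1 of the NP libraries or without replicate 2 of 16 dpc (adjusted p from 0.0545 to 0.141). F8, the gene of factor VIII, which is made mainly by endothelial cells, was at 7.00, 26.4 and 32.6 CPM in NP and at 8.56, 6.07 and 10.8 CPM at 8 dpc. The NP library at 7.00 CPM, replicate 1, was also the lowest of the 3 for each of the 8 endothelial markers (Kdr at 19.5 against 56.6 and 57.8 CPM), and the part of this in the spread of F8 was not tested. Its log2 fold change was -1.37 ± 0.43 at 8 dpc (adjusted p = 0.399) and -0.81 ± 0.42 at 16 dpc (adjusted p = 0.292). F3, for tissue factor, was at most 4.46 CPM in any of the 15 libraries (log2 fold change -0.08 ± 0.42 at 16 dpc).

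Vwf, on chromosome 6 (GRCm38, 125546774 to 125686679, plus strand), had the largest change of all members. It gave 3.32, 5.18 and 5.87 CPM in NP, 3.38, 3.39 and 3.69 at 8 dpc and 78.5, 285 and 88.5 at 16 dpc with AAV8-null, from 881 to 3417 counts a library. NP and 8 dpc overlapped, and the lowest 16 dpc library was far above both. The log2 fold change against NP was 4.97 ± 0.59, or 31.4-fold (adjusted p = 0.000277), and it was 4.12 without replicate 2 of 16 dpc. Per kilobase of exon, its level was 0.298 CPM in NP, rank 30 of the 34 members, and 9.37 CPM at 16 dpc.

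Von Willebrand factor is made by endothelial cells and megakaryocytes, so markers of these cells are given beside it. None of the 8 markers of liver endothelium was called at 16 dpc against NP, and their sum was 181 to 309 CPM in NP and 230 to 298 CPM at 16 dpc. No endothelial marker was at 0 in a group. Pecam1 was at 11.6, 19.6 and 17.3 CPM in NP and between 12.5 and 28.2 CPM at 16 dpc, and the library with the most Vwf, replicate 2, was also the one with the most Pecam1. The 6 markers of platelets and megakaryocytes summed to 3.05 to 3.22 CPM in NP and 4.36 to 4.83 CPM at 16 dpc, and of the 3 that passed the filter none was called. Of these, Ppbp, a platelet chemokine, lay higher at 16 dpc in every library, with 0.0693, 0.0609 and 0.420 CPM in NP and 1.43, 0.667 and 1.07 CPM at 16 dpc, from 1 to 16 counts a library (log2 fold change 2.50 ± 0.72, adjusted p = 0.0537), and Pf4 and Itga2b overlapped between the groups. Of 4 erythroid markers, Hbb-bs and Alas2 were called higher, and the sum of the 4 was 44.3 to 92.9 CPM in NP and 105 to 169 CPM at 16 dpc. The part of these cells in the change of Vwf was not tested beyond these values. Between NP and 8 dpc, 6 of the 8 endothelial markers were lower at an unadjusted p under 0.05 and none passed the adjustment, with sums of 126 to 169 CPM at 8 dpc. The part of endothelial RNA in the lower values of F8 and Thbd at 8 dpc was not tested.

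**Figure D3:**
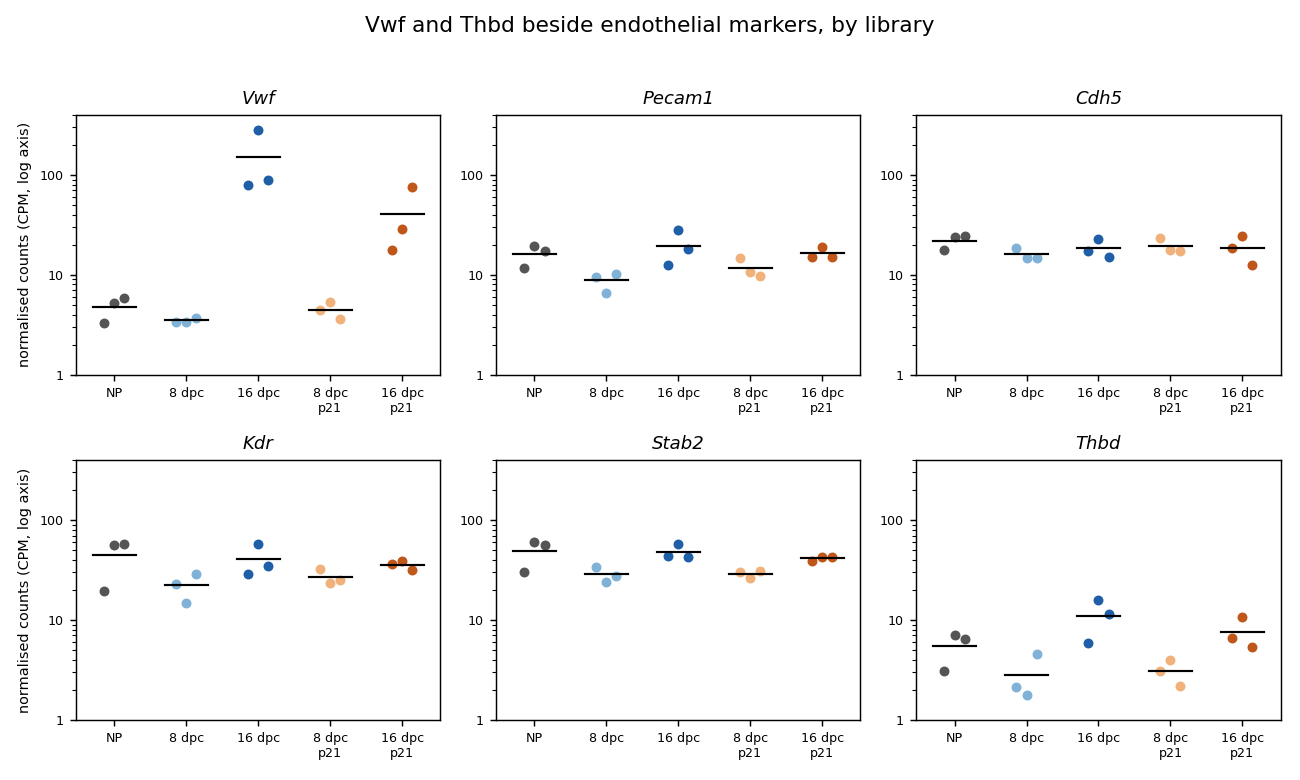
TMM-scaled CPM of Vwf, 4 endothelial marker genes and Thbd by library (points) and group mean (line), on the same log axis. Vwf stands between 78.5 and 285 CPM in the 3 AAV8-null libraries of 16 dpc and between 3.32 and 5.87 CPM in NP, while the endothelial markers of 16 dpc overlap with NP.

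Factor XIII stabilises fibrin. F13b, its carrier subunit, was between 101 and 239 CPM in NP and between 137 and 194 CPM at 16 dpc (log2 fold change -0.07 ± 0.29). F13a1, the catalytic subunit, which is made by megakaryocytes and macrophages, had at most 9 counts in any library and was not tested.

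In the protein C group, thrombin bound to thrombomodulin activates protein C, which with protein S inactivates factors V and VIII, while protein Z helps to block factor X. Proz, for protein Z, gave 354, 264 and 292 CPM in NP, 404, 423 and 269 at 8 dpc and 684, 670 and 492 at 16 dpc, a log2 fold change of 1.02 ± 0.23 (adjusted p = 0.0159). This call was lost without NP replicate 2 or 3 or replicate 2 of 16 dpc (adjusted p from 0.0556 to 0.0789). Proc, for protein C, was between 355 and 493 CPM in NP and between 362 and 537 CPM at 16 dpc (log2 fold change 0.17 ± 0.23, adjusted p = 0.731). Pros1, for protein S, differed by 0.15 ± 0.37. Thbd, for thrombomodulin, was at 3.05, 7.01 and 6.43 CPM in NP and at 5.88, 15.7 and 11.5 CPM at 16 dpc (adjusted p = 0.204).

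Per kilobase, F7 stood at 0.279 ± 0.0442 times the level of Proc in NP and at 0.989 ± 0.175 times at 16 dpc (SD, n = 3). The ranges, 0.231 to 0.318 and 0.791 to 1.12, did not overlap. The pairs set in ratio were chosen with the values of their genes known, so F7 against Proc, a gene with a large and one with a small difference, repeats those differences on a scale free of library factors. For Plg against Serpinf2 the ranges overlapped, with 2.34 to 2.51 in NP and 2.09 to 3.60 at 16 dpc.

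Among protease inhibitors, none was called at 16 dpc by edgeR with the filter used, whereas DESeq2 on all libraries called Serpina10 (adjusted p = 0.00899) and Serpinc1 (adjusted p = 0.0384). Serpina10, for the protein Z-dependent inhibitor of factor X, came closest in edgeR, with 238, 121 and 117 CPM in NP and 319, 345 and 525 CPM at 16 dpc (log2 fold change 1.32 ± 0.38, adjusted p = 0.0517, and 0.0452 without a filter on low counts). Serpinc1, for antithrombin, the main inhibitor of thrombin, was between 1650 and 2741 CPM in NP and between 2653 and 4386 CPM at 16 dpc, which overlap (log2 fold change 0.75 ± 0.26, adjusted p = 0.108). Serpinc1 overlaps Zbtb37 on the other strand, and likewise Serpind1 overlaps Pi4ka (12205 bases), Plg overlaps Slc22a3 (426 bases) and F8 overlaps Fundc2 (217 bases). Whether the counting used strand is not stated in the sources used here, so the levels of these 4 members are uncertain. So is that of Klkb1, which shares 25189 bases with Gm45753, a protein-coding gene on the same strand that is not counted here. Serpind1, for heparin cofactor II, differed by 0.31 ± 0.30, and Tfpi, for tissue factor pathway inhibitor, by -0.17 ± 0.35. A2m and Serpina5 had at most 6 and 1 counts in a library and were not tested. Within libraries, F2 per kilobase rose against Serpinc1 from 1.34 ± 0.173 times in NP (at most 1.45) to 2.27 ± 0.317 times at 16 dpc (1.93 to 2.56).

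In fibrinolysis, plasminogen is the zymogen of plasmin, and its activators are encoded by Plat and Plau. Plg gave 2380, 1857 and 2082 CPM in NP, 2661, 2732 and 2015 at 8 dpc and 4301, 3729 and 2804 at 16 dpc, a log2 fold change of 0.78 ± 0.22 (adjusted p = 0.0444). This was the weakest of the 14 calls, lost under 13 of 18 alternatives, among them leaving out any NP library (adjusted p from 0.0504 to 0.163) or replicate 1 or 2 of 16 dpc (0.133 and 0.117). Plau had 13, 21 and 29 counts in NP and 10, 5 and 2 at 16 dpc (log2 fold change -1.49 ± 0.60, adjusted p = 0.168), and Plat, with at most 12 counts, was not tested. Of the genes that restrain plasmin, Serpinf2, for α2-antiplasmin, differed by 0.55 ± 0.24 (adjusted p = 0.207) and Cpb2, for the thrombin-activatable fibrinolysis inhibitor, by 0.70 ± 0.32 (adjusted p = 0.230). Hrg, for the histidine-rich glycoprotein that binds plasminogen, stood at 644 to 748 CPM in NP and at 936 to 1086 CPM at 16 dpc (log2 fold change 0.53 ± 0.18, adjusted p = 0.111).

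**Figure D4:**
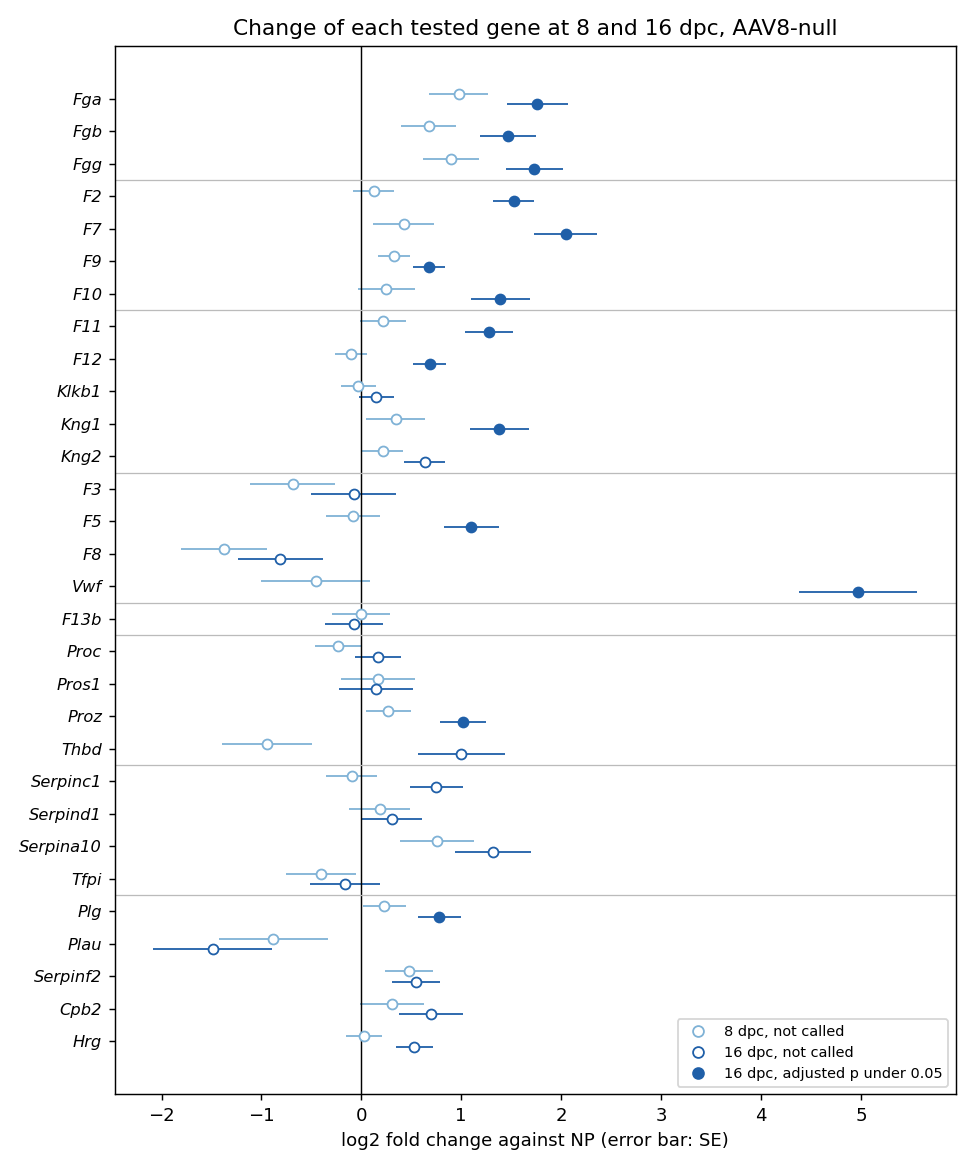
Log2 fold change against NP of the 30 tested genes in AAV8-null livers at 8 dpc (light) and 16 dpc (dark), with SE as error bars, TMM scaling and role groups parted by grey lines. The 14 filled points are the calls at 16 dpc, with Vwf at 4.97 farthest to the right, and no gene is called at 8 dpc.

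At 8 dpc no member was called against NP with AAV8-null, and no gene of the 12172 was (0% called by edgeR, 803 genes or 6.6% at an unadjusted p under 0.05). DESeq2 called no member either, and its share over all genes was not computed for this comparison. Of the members, 4 had an unadjusted p under 0.05, which were the 3 fibrinogen chains and F8. The 3 largest differences were those of F8 (-1.37), Fga (0.97) and Thbd (-0.95 ± 0.45). The median log2 fold change of the 30 was 0.18, and -0.01 over all genes.

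Between 8 and 16 dpc with AAV8-null, 9 members were higher and none lower, while 6.87% of all genes were called, 3.16% as higher. They were Vwf (log2 fold change 5.43), Thbd (1.95), F7 (1.62), F2 (1.40), F5 (1.19), F11 (1.06), Kng1 (1.04) and F12 (0.79), and F10, which was 2.21-fold higher. Without replicate 2 of 16 dpc the value of Vwf was 4.58. Thbd was at 2.15, 1.79 and 4.58 CPM at 8 dpc, so its libraries of 16 dpc lay above those of 8 dpc but not above those of NP. The count was 3 without replicate 2 of 8 dpc, 3 without replicate 2 of 16 dpc and 4 without replicate 1 of 8 dpc. Vwf, F2 and F7 were called in each. On total counts 4 members were called higher and 3, Klkb1, F13b and Serpinf2, lower, against 1.56% of all genes higher and 51.9% lower. The endothelial markers summed to 126 to 169 CPM at 8 dpc and to 230 to 298 CPM at 16 dpc, and 2 of 8 were called higher. Their part in the change of Thbd was not tested.

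The AAV8-p21 livers give the same stage comparison in other mice. Between 8 and 16 dpc with AAV8-p21, 8 members were higher and none lower, while 3.32% of all genes were called, 2.09% as higher. They were Vwf (log2 fold change 3.19), F11 (1.78), F7 (1.75), F2 (1.27), F5 (1.17), Kng1 (1.15), Hrg (0.86) and F12 (0.85), and all 30 members had a positive value, against 48.1% of all genes. The endothelial markers summed to 167 to 217 CPM at 8 dpc and to 216 to 255 CPM at 16 dpc with none of 8 called, and of 3 tested platelet and megakaryocyte markers Ppbp was called higher (log2 fold change 3.06, adjusted p = 0.0318). Without the 16 dpc library at 75.4 CPM of Vwf, the value of Vwf was 2.38. F11 gave 33.4, 43.4 and 43.1 CPM in the earlier group and 174, 135 and 105 CPM in the later. Hrg, for which each library of 16 dpc (975 to 1206 CPM) lay above each of 8 dpc (565 to 643 CPM), was called by edgeR with AAV8-p21. With AAV8-null its log2 fold change was 0.50 ± 0.18, which DESeq2 on all libraries called (adjusted p = 0.0349) and edgeR did not (adjusted p = 0.119), and the interaction was not called for it (log2 scale, 0.35 ± 0.26).

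No library is shared between the stage comparisons of the arms. Of the members called higher, 7 were called in both, which is 77.8% of the 9 with AAV8-null and 87.5% of the 8 with AAV8-p21. Over all genes tested, 192 were called higher in both, or 49.9% of 385 and 75.6% of 254. The 7 were Vwf, F2, F7, F11, F12, F5 and Kng1. Leaving out 1 library of either arm at a time gave 3 to 6 shared members, with Vwf, F2 and F7 among them each time. The shared count was 3 without replicate 2 of 8 dpc or replicate 2 of 16 dpc with AAV8-null, and 4 without replicate 1 of 8 dpc with AAV8-null or replicate 1 or 2 of 8 dpc with AAV8-p21. Kng1 was shared in 1 of these 12 fits and F5 in 3. The count with AAV8-p21 was 4 without replicate 1 or replicate 2 of 8 dpc and 5 without either of 2 of the libraries of 16 dpc, and F2, F7, F11 and Vwf were called each time. On total counts it was 5, with 4 higher and 1, Klkb1, lower, against 1.47% of all genes higher and 34% lower.

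**Figure D5:**
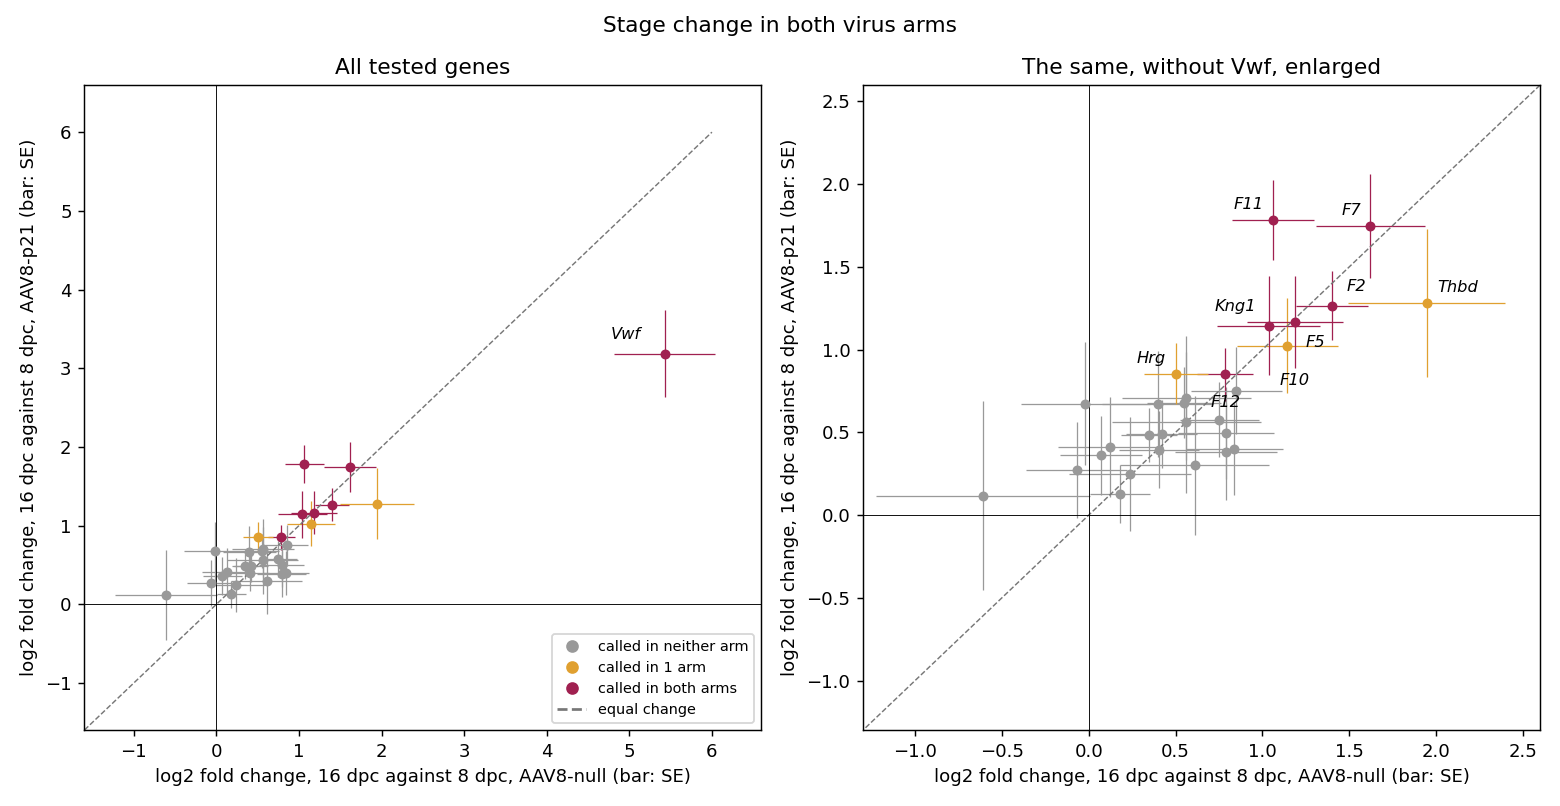
Log2 fold change of 16 dpc against 8 dpc for the 30 tested genes, with AAV8-null on the horizontal and AAV8-p21 on the vertical axis, SE as bars and the dashed line for equal change. The right panel enlarges the left without Vwf. Of the genes called, 7 are called in both arms, and Vwf (5.43 and 3.19) lies below the line while F11 (1.06 and 1.78) lies above it.

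Whether p21 in hepatocytes altered these genes was asked by comparing AAV8-p21 with AAV8-null at the same stage. At 16 dpc no member was called, with 0.0739% of all genes called by edgeR, and 4 members had an unadjusted p under 0.05, against 9.77% of all genes. The 3 largest differences were those of Vwf, F11 and Plau (0.74 ± 0.63). Vwf was at 17.5, 28.7 and 75.4 CPM with AAV8-p21, all below the 78.5 to 285 CPM with AAV8-null (log2 fold change -1.89 ± 0.51, adjusted p = 0.207). Without the AAV8-p21 library at 75.4 CPM, Vwf was called lower (log2 fold change -2.70, adjusted p = 0.0437). Leaving out any other library of these groups, replicate 2 of AAV8-null at 285 CPM among them, gave no call. DESeq2 on all libraries called Vwf as well (adjusted p = 0.0218), and its share over all genes was not computed here. Of the 8 endothelial markers none was called in this comparison, and 6 had a negative value (median log2 fold change -0.17). Their part in the difference of Vwf was not tested. F11 was at 105 to 174 CPM with AAV8-p21 and at 63.1 to 84.8 CPM with AAV8-null (log2 fold change 0.83 ± 0.23, adjusted p = 0.232). Fga and Fgg differed by -0.63 ± 0.29 and -0.64 ± 0.28 (adjusted p = 0.510 and 0.489).

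At 8 dpc no member was called between AAV8-p21 and AAV8-null either, with 0.0246% of all genes called, and F9 alone had an unadjusted p under 0.05 (log2 fold change -0.35 ± 0.16), against 5.18% of all genes. The 3 largest differences were those of Pros1 (-0.48 ± 0.37), F3 (0.37 ± 0.42) and Vwf (0.35 ± 0.54). The interaction of virus and stage was called for no gene of the 12172 by edgeR, with 376 genes or 3.09% at an unadjusted p under 0.05, and for no member by DESeq2. For DESeq2 the share over all genes was not computed here. Of the members, Vwf (-2.24 ± 0.74) and F11 (0.72 ± 0.33) had an unadjusted p under 0.05, and Plau (0.72 ± 0.84) was among the 3 largest. The stage change of Vwf with AAV8-null fell to 4.58 without replicate 2 of 16 dpc. With AAV8-p21 it fell to 2.38 without the 16 dpc library with the most Vwf. All 8 endothelial markers had a negative interaction (median -0.42), none was called, and their part in that of Vwf was not tested.

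Livers with AAV8-p21 at 16 dpc were also set against the same NP libraries, so this comparison shares its controls with that of AAV8-null. It called 12 members higher and none lower, against 3.81% of all genes, 2.65% as higher. The values beside those of AAV8-null were 3.08 and 4.97 for Vwf, 2.28 and 2.05 for F7, 2.11 and 1.28 for F11, 1.57 and 1.39 for F10, 1.56 and 1.38 for Kng1, 1.43 and 1.52 for F2, 1.13 and 1.76 for Fga, 1.09 and 1.73 for Fgg, 1.03 and 1.02 for Proz and 0.69 and 0.68 for F12. Without the AAV8-p21 library at 75.4 CPM of Vwf, the value of Vwf was 2.27. Serpina10 (1.47 and 1.32) and Serpinf2 (0.96 and 0.55) were called by edgeR with AAV8-p21 and not with AAV8-null, where DESeq2 called Serpina10, and the adjusted p of Serpina10 was close to the threshold on both sides (0.0446 and 0.0517). The count was 4 without NP replicate 2, 5 without NP replicate 3 and 6 without either of 2 of the AAV8-p21 libraries, and Vwf, F7, F11 and F2 were called each time. On total counts 6 were higher and 2, Klkb1 and F8, lower, against 1.78% of all genes higher and 34.4% lower.

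A further 46 genes act around the cascade, as carboxylation and secretion enzymes, receptors, activators, inhibitors and clearance receptors, and 42 of them were tested. At 16 dpc with AAV8-null, 10 of the 42 were higher than in NP and none was lower, against 3.71% of all genes higher. The 5 largest were Serpina1e (log2 fold change 3.50 ± 0.54), an α1-antitrypsin gene, Fgl1 (1.87 ± 0.38), a fibrinogen-like secreted protein, Pzp (1.44 ± 0.23), a broad protease inhibitor related to α2-macroglobulin, and Asgr1 and Asgr2 (both 1.40), the subunits of the receptor that clears desialylated glycoproteins. Pzp was at 3351 to 4097 CPM in NP and at 7563 to 12746 CPM at 16 dpc, whereas A2m had at most 2 counts in these libraries. The α1-antitrypsin genes are near-identical copies and their levels are uncertain. The enzymes of the vitamin K cycle, Ggcx (-0.73 ± 0.25, adjusted p = 0.104) and Vkorc1 (0.03 ± 0.26), were not called against NP, but from 8 to 16 dpc Ggcx was called lower (-1.05), with 36.6 to 54.3 CPM at 8 dpc and 18.2 to 25.0 CPM at 16 dpc. These enzymes were named after their values were seen. In that comparison 8 of the 42 were higher and 4 lower, against 6.87% of all genes called and 3.16% higher, and with AAV8-p21 7 were higher and none lower, against 2.09% higher.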

How the data were processed

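Bulk liver RNA of 15 mice in 5 groups of 3 was sequenced as stranded mRNA libraries. Per the submitters' processing notes, cutadapt 1.14 (trimming), HISAT2 2.1.0 (alignment, mm10) and HTSeq 0.12.4 (counting) were run by the authors, and the deposited values are raw counts per protein-coding gene from reads with a single alignment. The strand setting of the counting is not given in the sources used here. In edgeR 4.0.16 (R 4.3.3), counts were filtered with filterByExpr (minimum count 10), scaled by TMM and fitted over the 15 libraries in a single quasi-likelihood model, with p-values adjusted (Benjamini-Hochberg) over 12172 genes, and a call is an adjusted p under 0.05. SE is the log2 fold change divided by the square root of F. CPM values are scaled by TMM, and CPM per kilobase uses annotated exon length (GENCODE M21). Promoters come from RefSeq (GRCm38.p6). Separate animals are the replicates. The 16 dpc AAV8-p21 columns carry other numbers than the labels and were used without numbers.

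The members and lists were chosen with earlier results of these data known. Members called against NP in AAV8-null livers are all named, with values per library for the 12 with the largest change. In other comparisons all called members are named, or, where there are none, the 3 with the largest change. Members named for an unadjusted p under 0.05, and Ggcx, Vkorc1, Cd9 and the acute-phase genes, were singled out after their values were seen. Alternatives were DESeq2 1.42.0 (size factors and Wald test), upper-quartile factors, other count filters, the compared groups alone, a log2 fold change past 1, the replicate block, Alb left out, each library left out and, added after seeing the data, total counts. The tests were checked on simulated counts, and figures drawn with matplotlib 3.10.9. One gene of the wider pathway list is included in its counts, but its values are not reported here.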

Additional observations from a re-analysis of the deposited data

How the results depend on the processing

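No call among the members changed direction under any alternative run. With edgeR on the compared groups alone, 9 members were called at 16 dpc against NP, 3 for 16 dpc against 8 dpc with AAV8-null, 5 with AAV8-p21 and 7 for AAV8-p21 at 16 dpc against NP. The share of all genes called was not computed for this setting. The same holds for DESeq2 on the compared groups alone, upper-quartile factors, the replicate block and the fits with a library left out. These counts of members thus have no background to be read against. With the DESeq2 Wald test on all libraries, 14 were called between 8 and 16 dpc with AAV8-null (4.9% of all genes higher), 1 (Vwf, lower) between the viruses at 16 dpc, and 20 for AAV8-p21 at 16 dpc against NP (4.02% of all genes higher), where DESeq2 on the compared groups alone called 19. Between the viruses the share of all genes called by DESeq2 was not computed. On total counts, chosen after seeing the data, 5 were called between 8 and 16 dpc with AAV8-p21. Leaving out each library in turn gave 7 to 14 calls at 16 dpc against NP, 3 to 7 between 8 and 16 dpc with AAV8-null, 4 to 7 with AAV8-p21, 0 to 1 between the viruses at 16 dpc and 4 to 11 for AAV8-p21 at 16 dpc against NP. Upper-quartile factors moved the median of all genes to -0.12 and left 13 members called at 16 dpc against NP. With the replicate block, on the 12 libraries with a known number, 10 were called at 16 dpc against NP and 7 from 8 to 16 dpc, against 13 and 8 on the same libraries without it. Libraries of the same number are different mice, their deviations correlated at 0.00588 on average with 7 of 18 pairs over 0.1, and in 9 of 36 cases a library correlated best with its own number, so the numbers were not taken as pairs. Genes at a few counts, such as Plau, F3 and Plat, are limited by depth.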

Other observations

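Some members lie side by side in the genome (GRCm38). F7 (13026034 to 13035809), F10 (13037308 to 13056676) and Proz (13060914 to 13076026) follow one another on the plus strand of chromosome 8, and all 3 were called higher at 16 dpc with AAV8-null (log2 fold changes 2.05, 1.39 and 1.02). Farther along chromosome 8, F11 (45241174 to 45262031) was called and Klkb1 (45266689 to 45294859), whose level is uncertain because another gene overlaps it, was not, and the difference between them was not tested. On chromosome 16, Hrg, Kng2 and Kng1 lie between 22951072 and 23082078, and edgeR called Kng1 at 16 dpc against NP, a call lost without NP replicate 2 or 3. DESeq2 on all libraries called Kng2 (adjusted p = 0.0255) and Hrg (adjusted p = 0.0215) as well.

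Around Vwf, the nearest counted gene on the left, Cd9, a tetraspanin of many cell surfaces that lies 51983 bases away, was also called higher at 16 dpc with AAV8-null, with a mean of 13.4 CPM in NP and 130 CPM at 16 dpc (log2 fold change 3.28, adjusted p = 0.000407). Between 8 and 16 dpc with AAV8-p21 it was called too (1.89, adjusted p = 0.0179). Ano2, 3740 bases to the right, was below the filter, and Plekhg6 and Ntf3, farther out, were not called. Cd9 was looked at after the values of Vwf were seen.

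Of the 15 acute-phase genes listed beside the members, 6 were called higher at 16 dpc against NP with AAV8-null, against 3.71% of all genes, which were Itih4 (log2 fold change 3.56), Cp (2.94), Apcs (1.93), Itih3 (1.78), Hpx (1.37) and Lbp (1.17). Saa1 (0.32) and Saa2 (-0.18), the members of that list with the strongest response to inflammation, were not. At 8 dpc against NP, 10 of the 15 had an unadjusted p under 0.05 with a positive difference, against 6.6% of all genes in either direction, and none passed the adjustment. In that group replicate 2 stood apart, with 869 CPM of Saa1, 596 of Saa2, 454 of Orm2 and 297 of Lcn2, where the other 2 libraries had at most 42.1, 18.8, 90.6 and 51.1 CPM. Its part in the count was not tested.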
